A study of Mus musculus with 18 samples.

Results

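The TGF-beta superfamily genes of mouse islets were followed across the WT, hIAPP and rIAPP genotypes. Members were the gene symbols of the count table that name a transforming growth factor beta, a bone morphogenetic protein (BMP), a growth and differentiation factor (GDF), an inhibin or activin subunit, one of their receptors or a Smad. Bmp3 was left out by the rule. This gave 48 of 54186 gene symbols, of which 37 passed the filter on low counts and were tested and 11 did not pass it.

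The samples were islets of 18 mice on the FVB strain background, all 6 weeks old, with 6 mice and 6 libraries for each genotype. The wild-type (WT) mice carried no transgene. Mice called hIAPP expressed human islet amyloid polypeptide and mice called rIAPP the rodent form, a hormone that beta cells store and release with insulin. In both lines the insulin II promoter drove the transgene and directed it to beta cells. The human peptide aggregates readily and the rodent peptide does not. RNA of about 165 islets gave 1 library per mouse, and ribosomal RNA was depleted.

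Ligands of the family are secreted dimers that bring together type II and type I receptors, which are serine/threonine kinases. The type II receptor activates the type I receptor, which phosphorylates receptor-regulated Smads: Smad2 and Smad3 after TGF-beta or activin, and Smad1, Smad5 and Smad9 after most BMPs. These bind Smad4 and enter the nucleus, and the inhibitory Smad6 and Smad7, themselves induced by the pathway, restrain it. In the pancreas, activins and the receptor Acvr1c are known to act on insulin release, TGF-beta on the matrix made by stellate cells, and BMP signals through Acvrl1 on blood vessels.

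Promoters of 4 members that the results turn on are shown first, as RefSeq gives them for GRCm38.p6. Of the 48 members, 35 matched an entry of the RefSeq promoter table. Inhba and Gdf10 rose in rIAPP islets, Tgfbr1 fell there, and Gdf15 rose in hIAPP islets by the largest fold of any member called in that comparison. Each run holds the 250 bases before the start of the gene, 5′ to 3′ on its own strand. Capitals mark matches to any of 5 motifs searched on both strands: GGCGCC and GTCTAGAC, which Smad proteins can bind, the cyclic AMP response element TGACGTCA, the ATF4 element TGATGNAA and the TATA motif TATAAA. The mice were FVB, whereas the reference is C57BL/6J.
Inhba, chr13:16011601-16011850, plus strand: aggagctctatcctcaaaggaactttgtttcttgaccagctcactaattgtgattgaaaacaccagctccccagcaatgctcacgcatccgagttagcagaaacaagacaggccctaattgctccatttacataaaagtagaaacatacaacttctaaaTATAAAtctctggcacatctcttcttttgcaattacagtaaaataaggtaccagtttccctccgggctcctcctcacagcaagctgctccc
Gdf10, chr14:33923337-33923586, plus strand: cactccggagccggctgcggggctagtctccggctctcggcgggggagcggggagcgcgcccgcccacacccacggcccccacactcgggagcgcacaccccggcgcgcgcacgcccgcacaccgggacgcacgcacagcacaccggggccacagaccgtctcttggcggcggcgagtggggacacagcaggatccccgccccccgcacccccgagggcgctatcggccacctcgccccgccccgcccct
Tgfbr1, chr4:47352972-47353221, plus strand: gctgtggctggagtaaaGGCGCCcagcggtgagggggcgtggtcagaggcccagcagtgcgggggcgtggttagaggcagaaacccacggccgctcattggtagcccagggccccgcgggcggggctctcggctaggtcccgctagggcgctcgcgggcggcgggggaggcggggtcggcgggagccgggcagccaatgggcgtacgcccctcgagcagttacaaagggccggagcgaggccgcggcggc
Gdf15, chr8:70632457-70632706, minus strand: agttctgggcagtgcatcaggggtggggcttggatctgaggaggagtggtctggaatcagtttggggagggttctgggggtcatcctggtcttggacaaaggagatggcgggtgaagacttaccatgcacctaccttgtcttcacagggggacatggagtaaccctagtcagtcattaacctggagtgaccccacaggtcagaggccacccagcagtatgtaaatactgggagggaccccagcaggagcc
The Inhba window held TATAAA, which occurred in this window of 14.3% of 27025 genes, and had a GC content of 43.2%. GC contents were 78.8% for Gdf10, 74.8% for Tgfbr1 and 56.4% for Gdf15, with 35, 29 and 1 CpG dinucleotides. GGCGCC was present in the Tgfbr1 window and in 10.8% of all genes. TGATGNAA, found in 3.91% of genes, was not among the letters of the Gdf15 window, nor were TGACGTCA (1.77%) or GTCTAGAC (0.2%) in any of the 4. A match or its lack in this window is a description of letters and says nothing about binding.

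Library totals were 109.6 to 166.2 M estimated counts. Levels below are CPM (counts per 1e6) on totals scaled by TMM, and log2 fold changes come from edgeR's quasi-likelihood test over 20244 genes, with ± for their standard error (SE). A gene was called at a Benjamini-Hochberg adjusted p under 0.05. The islet markers Ins1, Ins2, Gcg, Sst and Ppy were present in every library. Mouse Iapp was lower in hIAPP than in WT (-0.42 ± 0.11, edgeR adjusted p = 0.0156) and did not pass in rIAPP (0.19 ± 0.11), and whether reads of the rodent transgene were counted under Iapp is not given in the sources used here, so it checks the labels of neither line. Acinar markers summed to 1125 to 4744 CPM in WT (lowest and highest library), 3049 to 21756 in hIAPP and 5047 to 22372 in rIAPP. The libraries hIAPP 5 and hIAPP 6 held the least beta cell marker RNA of their genotype (68285 and 83713 CPM against at least 112900 in the other hIAPP libraries) and the most acinar RNA. The labels name no batch, and p-values set each difference between genotypes against the spread between mice of a genotype.

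Which members islets used was read from levels per kilobase of exon (GENCODE M21), since longer genes collect more counts. In WT islets Smad4, the common partner of the receptor-regulated Smads, had the highest level of any member, 19.9 ± 0.720 CPM per kb (SD, n = 6). Next came the type I receptors Tgfbr1, which transmits TGF-beta signals, at 17.2 ± 1.53 and Bmpr1a, a BMP receptor, at 16.5 ± 0.946, whose ranges of mean ± SD overlapped. Bmp1, a protease that processes procollagen and releases latent ligands rather than a BMP-type ligand, stood at 13.0 ± 0.551 CPM per kb. Among type I receptors the order went on with the activin receptor Acvr1b (7.33 ± 0.240), the endothelial receptor Acvrl1 (4.74 ± 0.323), the BMP receptor Acvr1 (2.69 ± 0.114), Acvr1c (0.996 ± 0.146) and Bmpr1b (0.290 ± 0.0290), with no overlap of mean ± SD between neighbours.

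Type II receptors lay closer together. The activin receptor Acvr2a stood at 6.32 ± 0.206 CPM per kb in WT, Tgfbr2, which binds TGF-beta, at 3.56 ± 0.400, the BMP receptor Bmpr2 at 3.45 ± 0.260 and Acvr2b, a second activin receptor, at 1.43 ± 0.244. Tgfbr2 and Bmpr2 did not differ beyond their spread. Tgfbr3, the coreceptor betaglycan that presents TGF-beta and inhibin, was at 4.74 ± 0.511. Of the receptor-regulated Smads, Smad5 (7.55 ± 0.840) and Smad1 (6.45 ± 0.509) of the BMP branch had the highest WT means per kb, and their ranges of mean ± SD overlapped. They were followed by Smad2 (4.55 ± 0.361), Smad3 (1.54 ± 0.147) and Smad9 (0.163 ± 0.0338). The inhibitory Smad7 stood at 2.30 ± 0.272 and Smad6 at 0.955 ± 0.301.

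Among ligands Inha, the alpha subunit of the inhibins, which oppose activin, had the highest level, 4.51 ± 1.15 CPM per kb in WT. It was followed by Inhbb, the beta B subunit of activins (2.30 ± 0.514), Gdf11, an activin-like ligand (2.06 ± 0.138), and Gdf10, a relative of Bmp3 (1.85 ± 0.345), whose ranges of mean ± SD overlapped. Tgfb3, Tgfb2 and Tgfb1, the TGF-beta ligands, were at 1.35 ± 0.171, 0.792 ± 0.0994 and 0.426 ± 0.0657. Among BMP ligands, Bmp6 (0.805 ± 0.0714), Bmp4 (0.766 ± 0.158) and Bmp5 (0.634 ± 0.0557) stood above Bmp7 (0.346 ± 0.0429) and Bmp2 (0.138 ± 0.0235). Gdf15, a cytokine of stressed cells, Gdf9, a growth factor of the oocyte, Inhba, the beta A subunit of activin A, and Gdf3, a ligand known from embryos, were the lowest of those tested in WT, between 0.0355 and 0.0854.

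**Figure D1:**
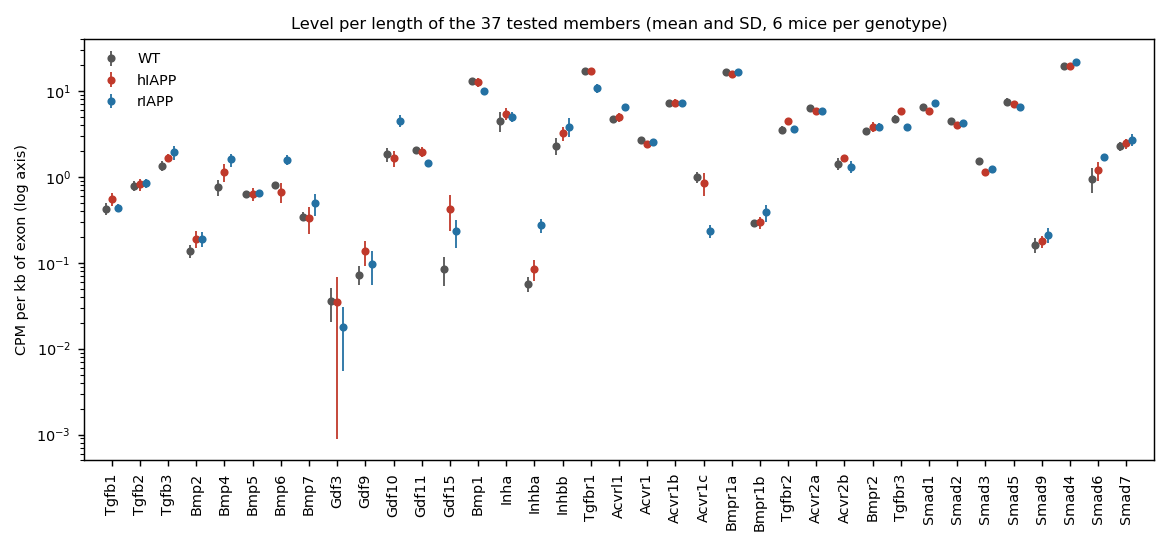
Level per kilobase of exon of the 37 tested members (log axis, CPM per kb), as the mean and SD of 6 mice for WT (grey), hIAPP (red) and rIAPP (blue). Smad4, Tgfbr1 and Bmpr1a lie highest and Gdf3 lowest, and Inhba, Acvr1c and Gdf10 show rIAPP apart from the other genotypes.

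Untested members held few counts. Bmp8a, Bmp8b, Bmp10, Bmp15, Gdf2, Gdf5, Gdf6, Gdf7, Inhbc and Inhbe had at most 15 counts in a library. Gdf1 was listed at 0 in all 18 libraries. All of its annotated exon length (1349 bases) lies within exons of Cers1 on the same strand, so reads of Gdf1 cannot be told apart from those of Cers1. Gdf2, a ligand of Acvrl1, had 32 counts over the 6 rIAPP libraries, 7 over the WT and 0 over the hIAPP libraries, too few for a test.

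The comparison of rIAPP with WT islets addressed how islets of the line with the non-aggregating transgene differed from WT. Among the ligands Inhba, Gdf10, Bmp4 and Bmp6 were higher in rIAPP islets and Gdf11 was lower, and the type I receptors Acvr1c and Tgfbr1 were lower. By role, 4 of 10 BMP and GDF ligands tested were higher, 1 was lower and 5 did not pass, and 2 of 3 activin and inhibin subunits were higher. Of the 37 members tested, 19 were called (51.4%), 12 higher and 7 lower, and 18 did not pass, beside 26.8% of all genes called (14.1% higher and 12.6% lower). The median log2 fold change of the members was 0.13 and that of all genes -0.01. The libraries did not overlap for 11 of the 37 members, beside 14.9% of all genes, and 5 called members differed by at least 2-fold, beside 6.58%. In the same libraries all 12 endothelial and 9 of 12 pericyte, stellate cell and fibroblast markers were higher, and 7 of 8 beta cell markers were lower. Of 13 macrophage markers 7 were lower and 1 higher, at 101 to 117 CPM summed in rIAPP against 150.3 to 174 in WT.

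Inhba lay at 0.268, 0.367 and 0.481 CPM in WT (lowest, median and highest library, as in the following sentences). In rIAPP it lay at 1.33, 1.66 and 2.19 CPM. Every rIAPP library was therefore above every WT library, and the log2 fold change was 2.27 ± 0.20 (edgeR adjusted p = 2.78e-08), a fold of 4.81. The gene lies on chromosome 13 (16011851 to 16031621, GRCm38, plus strand) and its promoter run is shown above. The TATAAA match in that run lies at bases -91 to -86 from the start of the gene. Inhbb, the other activin beta subunit, lay at 7.13, 8.95 and 12.8 CPM in WT and 11.4, 17.6 and 20.4 in rIAPP. The Inhbb groups overlapped, and the log2 fold change was 0.75 ± 0.16 (edgeR adjusted p = 0.00171). The inhibin subunit Inha did not pass (0.16 ± 0.14, edgeR adjusted p = 0.471).

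Gdf10 stood at 6.31, 10.03 and 11.6 CPM in WT and 20.0, 22.6 and 30.0 in rIAPP. The groups were apart, with a log2 fold change of 1.30 ± 0.15 (edgeR adjusted p = 1.02e-06). Bmp6, a ligand known for inducing hepcidin in the liver, went from 2.72, 3.30 and 3.34 CPM in WT to 5.17, 6.27 and 7.33 in rIAPP. Here too all 6 rIAPP libraries were above all WT libraries (0.98 ± 0.14, edgeR adjusted p = 1.84e-05). Of the Bmp6 exon length, 5.74% overlaps exons of Txndc5 on the opposite strand, and the strand setting of the counting is not given in the sources used here. Bmp4, a BMP made by mesenchyme and by vessels, was at 1.46, 1.63 and 2.43 CPM in WT and 2.88, 3.51 and 4.43 in rIAPP. It did not overlap either (1.06 ± 0.17, edgeR adjusted p = 8.32e-05).

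Further ligands were called in rIAPP as well. Tgfb3 rose from 3.98, 4.49 and 5.28 to 4.90, 6.49 and 8.26 CPM, with overlapping groups (0.53 ± 0.12, edgeR adjusted p = 0.00166), while Tgfb1 (0.05 ± 0.13) and Tgfb2 (0.10 ± 0.12) did not pass. Gdf15 lay at 0.0686, 0.180 and 0.224 CPM in WT and 0.199, 0.473 and 0.626 in rIAPP (1.44 ± 0.34, edgeR adjusted p = 0.00298), and 1 rIAPP library was inside the WT range. Gdf11, in contrast, fell from 7.45, 8.51 and 9.09 to 5.57, 5.77 and 6.66 CPM. Its groups did not overlap (-0.50 ± 0.08, edgeR adjusted p = 8.73e-05). The protease gene Bmp1 also fell without overlap, from 109.7, 115 and 123 to 82.0, 88.1 and 93.7 CPM (-0.39 ± 0.07, edgeR adjusted p = 0.000101). Bmp2 (0.47 ± 0.19), Bmp7 (0.51 ± 0.21), Bmp5 (0.03 ± 0.11), Gdf3 (-0.95 ± 0.59) and Gdf9 (0.39 ± 0.30) did not pass.

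On the receptor side Acvr1c, the type I receptor ALK7 that carries activin and nodal-type signals, had the largest decrease. Its level was 7.09, 9.69 and 10.7 CPM in WT and 1.85, 2.05 and 2.81 in rIAPP, so that all rIAPP libraries were below all WT libraries. The log2 fold change was -2.08 ± 0.17 (95% interval -2.43 to -1.74, edgeR adjusted p = 7.65e-09), 4.24-fold lower. Tgfbr1 fell from 102, 110.1 and 129 to 63.4, 68.8 and 86.7 CPM, again without overlap (-0.67 ± 0.07, edgeR adjusted p = 3.82e-07). Acvrl1, a receptor of endothelial cells, rose from 18.7, 20.1 and 22.6 to 26.3, 28.1 and 30.5 CPM with no overlap (0.47 ± 0.07, edgeR adjusted p = 2.05e-05). Bmpr1b rose with overlapping groups, 1.59, 1.68 and 2.06 CPM in WT and 1.65, 2.15 and 3.14 in rIAPP (0.41 ± 0.14, edgeR adjusted p = 0.0389). The Bmpr1b call was lost in 9 of 21 alternative runs, and with the acinar score as a covariate the log2 fold change was 0.02 (edgeR adjusted p = 0.971).

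The type I receptors Bmpr1a (0.02 ± 0.05), Acvr1b (0.01 ± 0.06) and Acvr1 (-0.06 ± 0.05) did not pass, with 95% intervals of -0.10 to 0.13, -0.13 to 0.14 and -0.17 to 0.05. None of the 4 type II receptors passed: Tgfbr2 was at 0.03 ± 0.07, Acvr2a at -0.11 ± 0.05, Acvr2b at -0.12 ± 0.11 and Bmpr2 at 0.15 ± 0.09, of which Acvr2a had an unadjusted p of 0.0448. By DESeq2, 0 of these 4 passed. The coreceptor gene Tgfbr3 fell from 24.8, 31.7 and 34.5 to 21.2, 25.3 and 26.4 CPM (-0.33 ± 0.07, edgeR adjusted p = 0.00201), with overlapping groups. With library totals alone it was at -0.21 and not called (edgeR adjusted p = 0.0857).

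Of the 8 Smads, 5 were called in rIAPP, 3 higher and 2 lower. Smad6, the inhibitory Smad of the BMP branch, rose from 2.02, 2.76 and 4.65 to 4.87, 5.47 and 5.72 CPM, with every rIAPP library above every WT library (0.82 ± 0.18, edgeR adjusted p = 0.00130). Smad7 did not pass (0.25 ± 0.10, edgeR adjusted p = 0.0888). Smad3, which transmits TGF-beta and activin signals, fell from 7.87, 8.40 and 10.1 to 5.96, 6.90 and 7.40 CPM without overlap (-0.32 ± 0.08, edgeR adjusted p = 0.00425). Its call was lost with library totals alone (-0.20, edgeR adjusted p = 0.127) and with the acinar score as a covariate (-0.38). In the BMP branch Smad1 rose (0.17 ± 0.06, edgeR adjusted p = 0.0346) and Smad5 fell (-0.21 ± 0.06, edgeR adjusted p = 0.0185), from 35.9, 41.0 and 45.3 to 41.8, 45.4 and 49.2 and from 49.9, 53.6 and 67.1 to 44.4, 47.8 and 54.1 CPM. Smad4 rose by 0.13 ± 0.05 (edgeR adjusted p = 0.0465), from 69.5, 74.8 and 76.6 to 75.7, 80.1 and 86.1 CPM, and Smad2 (-0.09 ± 0.07) and Smad9 (0.38 ± 0.17) did not pass. The groups of Smad1, Smad4 and Smad5 overlapped, and the calls of Smad1 and Smad4 were lost in 9 and 10 of 21 alternative runs.

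**Figure D2:**
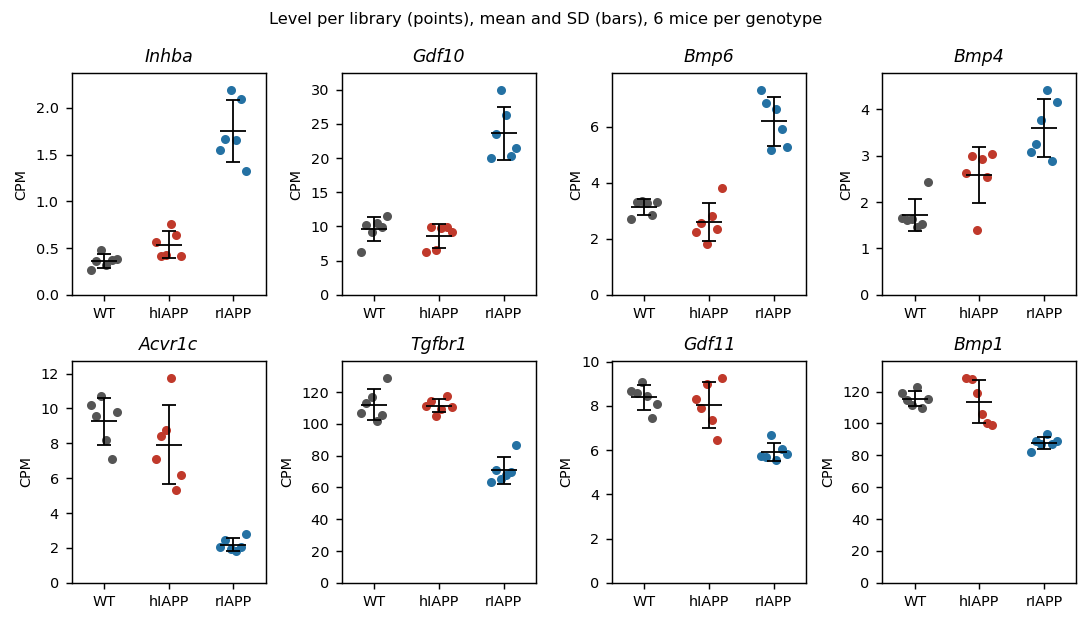
Level in CPM (axis from 0) of 8 members in each library (points) of WT, hIAPP and rIAPP islets, with mean and SD over 6 mice (bars). In the upper row the rIAPP libraries of Inhba, Gdf10, Bmp6 and Bmp4 lie above all WT libraries, and in the lower row those of Acvr1c, Tgfbr1, Gdf11 and Bmp1 lie below them.

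Cell markers moved with these members, and their part in the changes was not tested. Summed endothelial markers were 764 to 879 CPM in WT and 974 to 1089 in rIAPP (lowest and highest library), and pericyte, stellate cell and fibroblast markers 804 to 1139 and 1399 to 2276. Beta cell markers summed to 125710 to 157520 and 73648 to 101490 CPM, and none of these markers was at 0 in any library. In bulk islets fewer cells of a type and less RNA per cell cannot be told apart. All 23 acinar markers were also higher in rIAPP. With the acinar score as a covariate 8 of the 19 calls held, those of Acvr1c, Acvrl1, Bmp4, Gdf10, Gdf11, Inhba, Tgfbr1 and Tgfbr3. Acinar markers summed to at most 4744 CPM in a WT library and at least 5047 in a rIAPP library, without overlap. The covariate thus moved with genotype, and for the lost calls acinar RNA and genotype cannot be told apart. Scaling by library totals alone raised the median of all genes by 0.12, and 76.4% of the called genes were then higher, against 52.8% with TMM.

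The comparison of hIAPP with WT islets addressed how islets of the line with the human transgene differed from WT. Gdf15 was 4.96-fold higher in hIAPP, the TGF-beta receptors Tgfbr2 and Tgfbr3 were higher by under 2-fold, and Smad3 was lower. Of the 37 members 7 were called (18.9%), 6 higher and 1 lower, beside 15.8% of all genes (8.31% higher and 7.53% lower), so the members' share lay near the background. The median log2 fold change was 0.02 for members and -0.01 for all genes. Libraries of the groups did not overlap for 5 members of 37, beside 6.63% of all genes, and 1 called member differed by at least 2-fold, beside 2.85%.

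Gdf15 had 67 to 165 counts in an hIAPP library and 9 to 36 in a WT library. As CPM this was 0.0686, 0.180 and 0.224 in WT and 0.491, 0.677 and 1.34 in hIAPP, without overlap, and the highest value was in hIAPP 5. The log2 fold change was 2.31 ± 0.34 (95% interval 1.60 to 3.02, edgeR adjusted p = 0.000121). Gfral, the receptor of Gdf15 known from the hindbrain, did not pass the filter on low counts. Gdf9, at 0.0980, 0.148 and 0.206 CPM in WT and 0.212, 0.247 and 0.454 in hIAPP, rose without overlap (0.88 ± 0.30, edgeR adjusted p = 0.0479). Bmp4 rose from 1.46, 1.63 and 2.43 to 1.40, 2.78 and 3.03 CPM with overlapping groups (0.59 ± 0.17, edgeR adjusted p = 0.0248).

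Among the TGF-beta ligands Tgfb1, the form made by many immune and stromal cells, rose from 1.84, 2.05 and 2.70 to 2.11, 2.79 and 3.54 CPM (0.40 ± 0.13, edgeR adjusted p = 0.0375), and its groups overlapped. Tgfb3 (0.31 ± 0.12, edgeR adjusted p = 0.0778) and Tgfb2 (0.06 ± 0.12) did not pass. Neither did the activin subunits Inhba (0.57 ± 0.19, edgeR adjusted p = 0.0519) and Inhbb (0.48 ± 0.16, edgeR adjusted p = 0.0513), which lay just outside the threshold. The remaining ligands that did not pass ran from -0.27 ± 0.14 for Bmp6 to 0.46 ± 0.19 for Bmp2, and the protease gene Bmp1 was at -0.03 ± 0.06.

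Tgfbr2, the receptor that binds TGF-beta first, lay at 25.5, 28.7 and 33.2 CPM in WT. In hIAPP it lay at 33.4, 36.7 and 39.5 CPM, every library above every WT library (0.33 ± 0.07, edgeR adjusted p = 0.00404). Tgfbr3 rose likewise without overlap, from 24.8, 31.7 and 34.5 to 34.8, 39.5 and 41.9 CPM (0.32 ± 0.07, edgeR adjusted p = 0.00579). None of the 7 type I receptors passed, and 0 did so by DESeq2 and 1 at an unadjusted p under 0.05 in edgeR. Tgfbr1 was at -0.01 ± 0.07 (95% interval -0.16 to 0.13), Acvr1c at -0.22 ± 0.16 (-0.55 to 0.10) and Acvr1 at -0.14 ± 0.05. Acvrl1 (0.07 ± 0.07), Acvr1b (-0.01 ± 0.06), Bmpr1a (-0.05 ± 0.05) and Bmpr1b (0.02 ± 0.15) did not pass either. Of the type II receptors Acvr2a (-0.10 ± 0.05), Acvr2b (0.22 ± 0.11) and Bmpr2 (0.16 ± 0.09) did not pass.

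Of the 8 Smads Smad3 was called, from 7.87, 8.40 and 10.1 CPM in WT to 5.58, 6.15 and 7.38 in hIAPP, with all hIAPP libraries below all WT libraries (-0.44 ± 0.08, edgeR adjusted p = 0.000672). Smad2 (-0.19 ± 0.07), Smad1 (-0.14 ± 0.06), Smad5 (-0.08 ± 0.06), Smad9 (0.13 ± 0.17), Smad4 (0.00 ± 0.05), Smad6 (0.34 ± 0.18) and Smad7 (0.10 ± 0.10) did not pass. Side by side, Smad3 was at -0.44 ± 0.08 in hIAPP and -0.32 ± 0.08 in rIAPP against the same WT libraries.

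**Figure D3:**
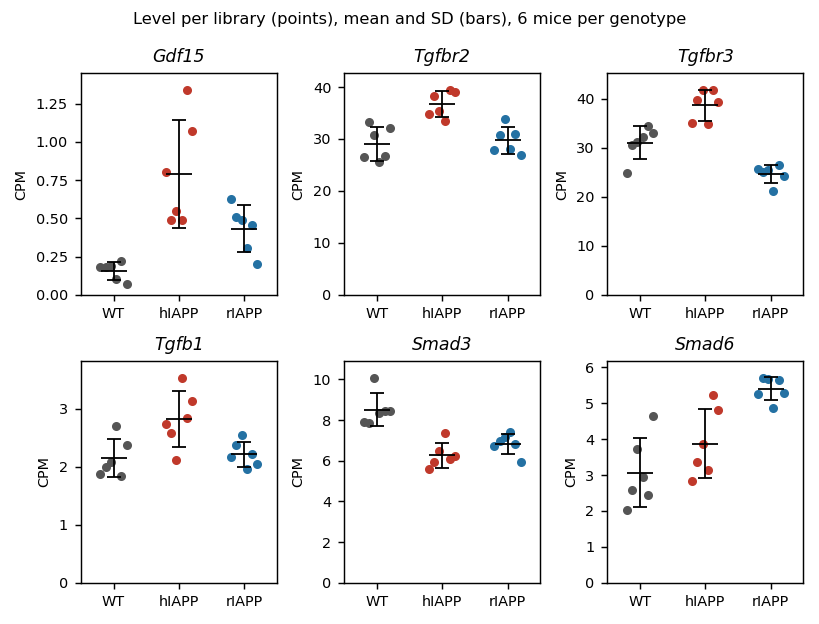
Level in CPM (axis from 0) of Gdf15, Tgfbr2, Tgfbr3, Tgfb1, Smad3 and Smad6 in each library (points), with mean and SD over 6 mice per genotype (bars). The hIAPP libraries lie above all WT libraries for Gdf15, Tgfbr2 and Tgfbr3 and below them for Smad3.

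Macrophage markers were higher in hIAPP in 12 of 13 cases, at 399.9 to 789 CPM summed against 150.3 to 174 in WT, and 8 of 12 pericyte, stellate cell and fibroblast markers were higher (1080 to 1974 CPM). Acinar markers were higher in 20 of 23 cases and Schwann cell markers in 5 of 8 (34.4 to 52.9 CPM summed, against 27.5 to 35.8 in WT). Beta cell markers were lower in 5 of 8 cases, at 68285 to 125620 CPM against 125710 to 157520. No marker of these lists was at 0, and their part in the members' changes was not tested. Without hIAPP 5 and hIAPP 6 the calls of Gdf15, Smad3, Tgfbr2 and Tgfbr3 held (4 members), with the acinar score as a covariate those of Gdf15 and Smad3 (Bmp6 was then called too, as lower), and 4 members were called without WT 1. The calls of Gdf9, Tgfb1 and Bmp4 were lost in 12 of 21, 12 of 22 and 7 of 22 alternative runs. With library totals alone 86.7% of called genes were higher, against 52.5% with TMM, and 11 members were called (10 higher and 1 lower).

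The comparison of hIAPP with rIAPP put the line with the human form beside the line with the rodent form, with the promoter held the same. Each form was carried by its own transgenic line, so other differences between the lines cannot be told apart from the form of the peptide. Lower in hIAPP were Inhba, Gdf10 and Bmp6, and higher were Acvr1c, Tgfbr1, Tgfbr3 and Tgfbr2. Of the 37 members 18 were called (48.6%), 9 higher and 9 lower in hIAPP and 19 not passing, beside 27.6% of all genes (13.5% higher and 14.1% lower). The median was -0.04 for members and near 0 for all genes. For 9 members the libraries did not overlap, beside 13.4% of all genes, and 4 called members differed by at least 2-fold, beside 6.32%. This comparison shares its rIAPP libraries with the one against WT, so members called in both are no separate evidence. All 12 endothelial markers were lower in hIAPP (679 to 793 CPM summed, against 974 to 1089 in rIAPP), 12 of 13 macrophage markers were higher (399.9 to 789 against 101 to 117) and 7 of 8 beta cell markers were higher, and their part in the members' changes was not tested.

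Members called in rIAPP against WT recurred here. Inhba was at 0.413, 0.497 and 0.758 CPM in hIAPP, below every rIAPP library (-1.70 ± 0.19, edgeR adjusted p = 1.03e-06). Gdf10 was at 6.25, 9.46 and 9.98 CPM (-1.45 ± 0.15, edgeR adjusted p = 2.4e-07) and Bmp6 at 1.81, 2.46 and 3.81 CPM (-1.25 ± 0.14, edgeR adjusted p = 1.01e-06), both below every rIAPP library. Acvr1c was at 5.31, 7.76 and 11.8 CPM, above every rIAPP library (1.86 ± 0.16, edgeR adjusted p = 3.8e-08). Tgfbr1 at 105, 111 and 117 CPM (0.66 ± 0.07, edgeR adjusted p = 4.91e-07) and Bmp1 at 98.9, 112 and 129 CPM (0.37 ± 0.07, edgeR adjusted p = 0.000215) were also above all rIAPP libraries. Gdf11, at 6.43, 8.11 and 9.27 CPM, was higher with overlapping groups (0.44 ± 0.08, edgeR adjusted p = 0.000353).

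Tgfbr3 was called higher than WT in hIAPP and lower than WT in rIAPP, the first call being lost with the acinar score as a covariate and the second with library totals alone. The hIAPP libraries were all above the rIAPP libraries, by 0.65 ± 0.07 (edgeR adjusted p = 1.21e-06). Tgfbr2 was higher in hIAPP by 0.30 ± 0.07 (edgeR adjusted p = 0.00354), and Acvr2b, at 6.11, 6.44 and 7.64 CPM in hIAPP and 4.07, 5.06 and 6.51 in rIAPP, by 0.33 ± 0.11 (edgeR adjusted p = 0.0325). Acvrl1 (-0.40 ± 0.07, edgeR adjusted p = 0.000144) and Smad1 (-0.32 ± 0.06, edgeR adjusted p = 0.000352) were lower in hIAPP, without overlap, at 18.2, 21.6 and 24.1 and 32.8, 36.2 and 40.4 CPM.

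Calls near the threshold followed for 6 members. Gdf15 (0.87 ± 0.32, edgeR adjusted p = 0.0494) and Tgfb1 (0.35 ± 0.13, edgeR adjusted p = 0.0441) were higher in hIAPP, Tgfb1 being at 1.97, 2.19 and 2.55 CPM in rIAPP. Bmp4 (-0.48 ± 0.17, edgeR adjusted p = 0.0424), Bmp7 (-0.58 ± 0.21, edgeR adjusted p = 0.0405), Smad6 (-0.48 ± 0.17, edgeR adjusted p = 0.0458) and Smad4 (-0.13 ± 0.05, edgeR adjusted p = 0.0384) were lower. Bmp7, a BMP of epithelia, lay at 0.851, 1.20 and 2.21 CPM in hIAPP and 1.29, 2.01 and 2.79 in rIAPP, beside 1.24, 1.35 and 1.65 in WT. Smad6 lay at 2.82, 3.62 and 5.23 CPM in hIAPP and Smad4 at 68.8, 73.5 and 77.7. Each of these 6 calls, and that of Acvr2b, was lost in at least 7 alternative runs.

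**Figure D4:**
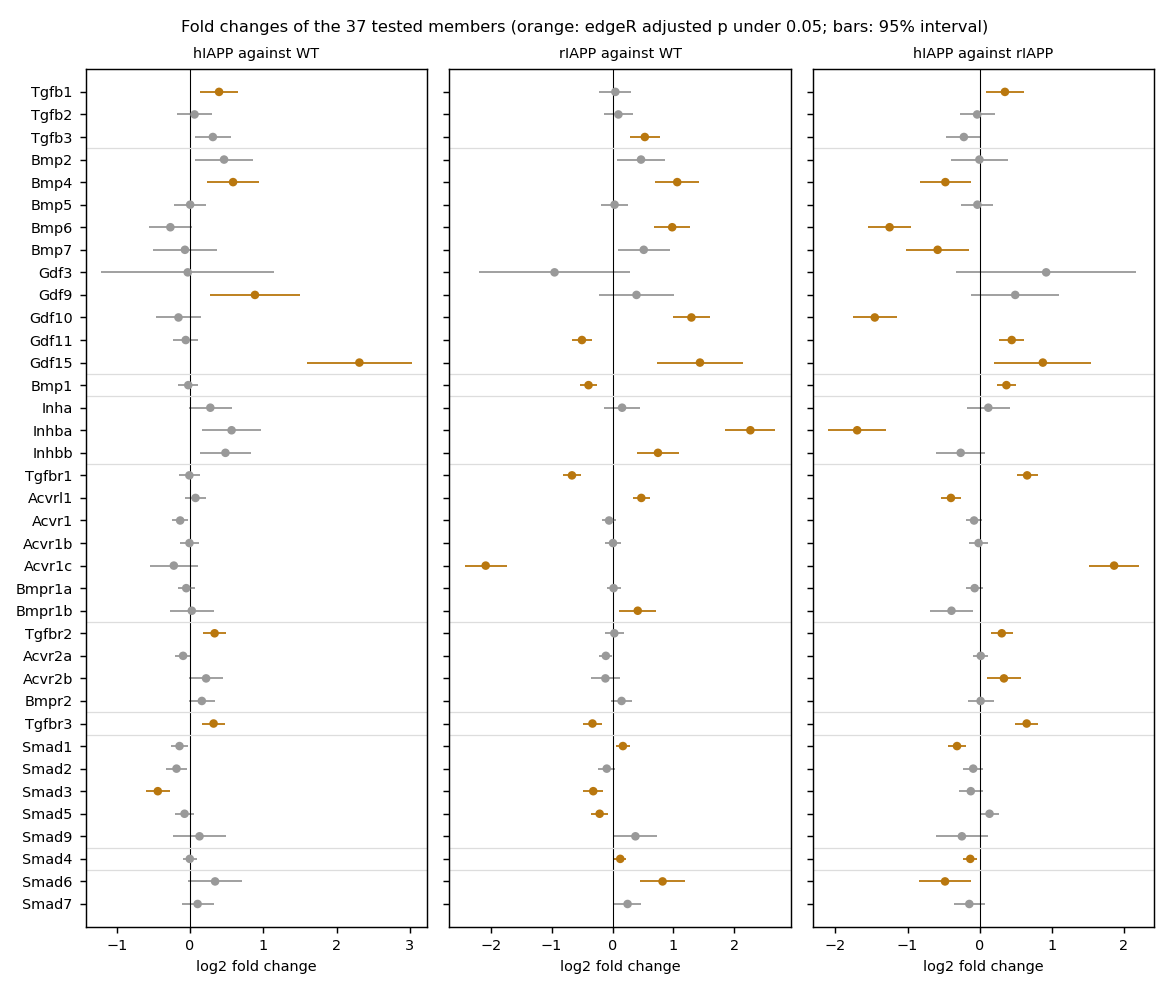
Log2 fold change with 95% interval of the 37 tested members, ordered by role, in hIAPP against WT, rIAPP against WT and hIAPP against rIAPP (orange, edgeR adjusted p under 0.05; grey, not called). The widest departures from 0 are Gdf15 in the first panel, Inhba and Acvr1c in the second, and Inhba, Gdf10 and Acvr1c in the third.

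Of the 48 members, 24 were called in at least 1 comparison, 13 in none and 11 were not tested. Of the 37 tested, 64.9% were called at least once, beside 41.3% of all genes. In 8 cases (21.6%, beside 8.45% of all genes) rIAPP was higher than both other genotypes and in 5 (13.5%, beside 7.4%) lower than both. The 8 were Acvrl1, Bmp4, Bmp6, Gdf10, Inhba, Smad1, Smad4 and Smad6. Of their calls against WT, those of Smad1, Smad4, Smad6 and Bmp6 were lost in 9, 10, 1 and 1 of 21 alternative runs. Of those between the lines, Bmp4, Smad4 and Smad6 were lost in 11, 10 and 13 of 22. The hIAPP islets were higher than both in 4 cases (10.8%, beside 3.51%) and lower than both in 0, beside 2.87%. The 4 were Gdf15, Tgfb1, Tgfbr2 and Tgfbr3. Between the lines the calls of Gdf15 and Tgfb1 were lost in 15 of 21 and 13 of 22 alternative runs, those of Tgfbr2 and Tgfbr3 in 0. Bmp4 and Gdf15 were called higher in both transgenic lines than in WT (5.41% of members, beside 3.7% of all genes), and Smad3 lower in both (2.7%, beside 2.95%), with the losses in alternative runs given above for Bmp4 in hIAPP and Smad3 in rIAPP. Bmp4, Gdf15 and Tgfbr3 were called in all 3 comparisons (8.11%, beside 2.81%). These comparisons share libraries, and no test of the counts was made. The direct comparison of hIAPP with rIAPP called 11 members whose result held in every alternative run: Acvr1c, Acvrl1, Bmp1, Bmp6, Gdf10, Gdf11, Inhba, Smad1, Tgfbr1, Tgfbr2 and Tgfbr3. For rIAPP against WT these were Acvr1c, Acvrl1, Bmp4, Gdf10, Gdf11, Inhba and Tgfbr1, and for hIAPP against WT Gdf15 and Smad3.

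Genes of the same pathway outside the rule were read from 7 lists, by their counts and medians beside all genes (medians of all genes -0.01 in each transgenic line against WT and near 0 between the lines). The shares of all genes called were 15.8%, 26.8% and 27.6% for hIAPP against WT, rIAPP against WT and hIAPP against rIAPP. Genes that respond to BMP were higher in rIAPP than in WT in 5 of 8 tested cases, with 0 lower and a median of 0.55, beside 14.1% of all genes higher. In hIAPP they were higher than in WT in 2 of 8 cases (median 0.24), beside 8.31%. Hey1, a repressor induced by BMP and Notch in vessels, lay at 2.43 ± 0.295 CPM in WT (mean ± SD, n = 6) and 4.79 ± 0.415 in rIAPP, without overlap (0.98 ± 0.11, edgeR adjusted p = 1.46e-06). Atoh8, a target of BMP in liver and vessels, rose by 0.75 ± 0.15 (edgeR adjusted p = 0.000733), Id1, an inhibitor of differentiation that BMP induces, by 0.62 ± 0.18 (edgeR adjusted p = 0.0153), and Hamp2 by 1.63 ± 0.53 (edgeR adjusted p = 0.0279), with 2 to 24 counts in a rIAPP library. With the acinar score as a covariate the calls of Id1, Hamp2, Atoh8 and Msx1 in rIAPP were lost, with Id1 at 0.07. Id1 and Hamp2 are named because they complete the 5 calls, after their values were seen. The other 3 tested genes, Id2, Id3 and Id4, did not pass in rIAPP against WT, and their groups overlapped. Id2 lay at 8.44 to 11.1 CPM in WT and 9.07 to 11.2 in rIAPP. Id3 lay at 4.88 to 7.76 and 5.92 to 10.1 CPM, and Id4 at 3.96 to 7.90 and 5.37 to 7.76. Msx1, a homeobox gene of BMP-responsive tissue, was higher in hIAPP (0.91 ± 0.14, edgeR adjusted p = 0.00026) and in rIAPP (0.48 ± 0.14, edgeR adjusted p = 0.0167). Between the lines 4 of the 8 genes were lower in hIAPP and 1 higher, with Id4 at -0.50 ± 0.13 (edgeR adjusted p = 0.00865). Endothelial markers were higher in the same rIAPP libraries, and their part in these values was not tested.

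Genes that respond to TGF-beta were higher in hIAPP than in WT in 12 of 16 cases, with 0 lower and a median of 0.89, beside 8.31% of all genes higher. In rIAPP they were higher in 8 of 16, with 0 lower and a median of 0.51, beside 14.1%. Of the 16, Col1a1, Col1a2, Col3a1 and Acta2 are also on the pericyte, stellate cell and fibroblast list, of whose 12 markers 8 were higher in hIAPP and 9 in rIAPP. Macrophage markers were higher in the same hIAPP libraries, and the part of either marker list in these values was not tested. Fn1, the matrix protein fibronectin, went from 4.99 ± 1.76 CPM in WT to 22.1 ± 8.84 in hIAPP, without overlap (2.15 ± 0.28, edgeR adjusted p = 3.3e-05). In rIAPP, at 7.24 ± 2.19 CPM, it did not pass (0.54 ± 0.27, edgeR adjusted p = 0.163). Postn, a matrix protein of activated fibroblasts, rose in hIAPP by 1.45 ± 0.22 (edgeR adjusted p = 0.000182). Col1a2, a collagen I chain, and Lox, the enzyme that crosslinks collagen, rose in hIAPP (0.98 ± 0.20 and 0.99 ± 0.21) and in rIAPP (1.41 ± 0.21 and 1.38 ± 0.21; edgeR adjusted p = 0.00277, 0.00277, 2.54e-05 and 3.32e-05). Between the lines, 4 of the 16 were higher in hIAPP and 1 lower, Fn1 by 1.61 ± 0.27 (edgeR adjusted p = 0.000152).

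**Figure D5:**
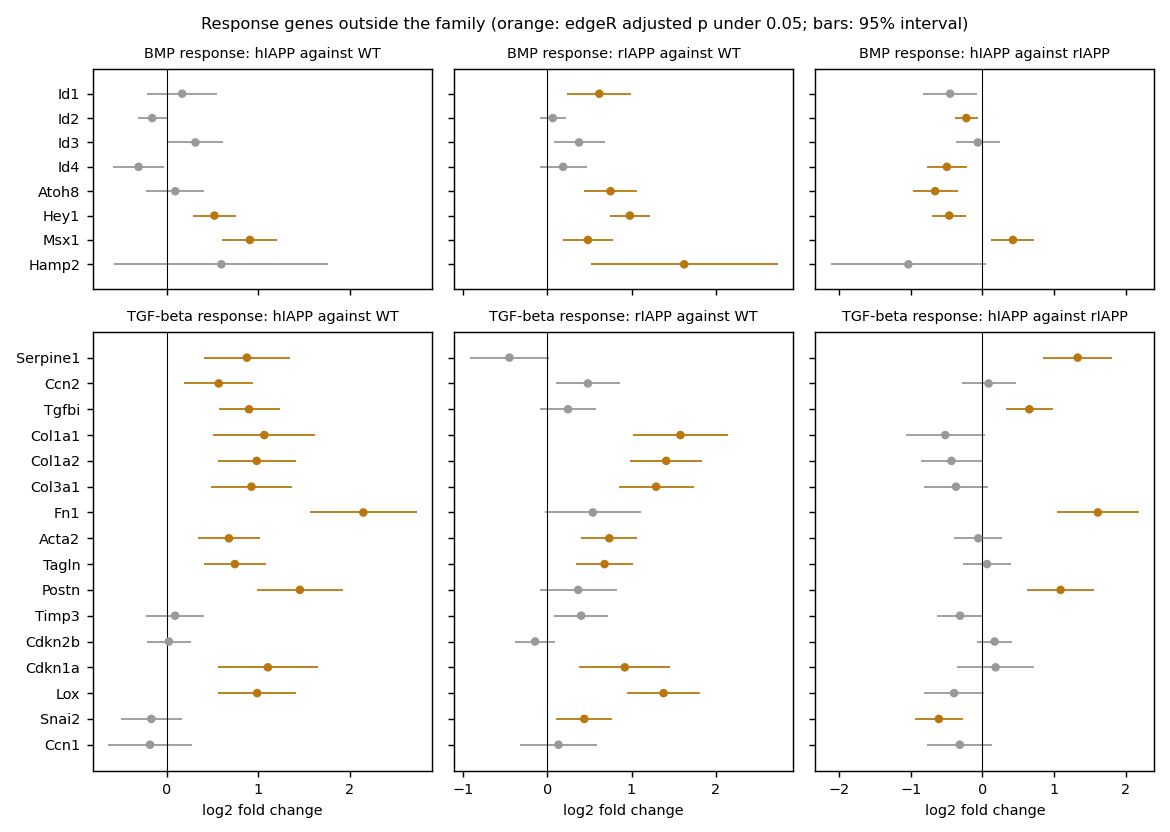
Log2 fold change with 95% interval of 8 BMP response genes (upper panels) and 16 TGF-beta response genes (lower panels) in the 3 comparisons (orange, edgeR adjusted p under 0.05). In rIAPP against WT 5 BMP response genes are called, and in hIAPP against WT 12 TGF-beta response genes.

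Genes for latency and activation of TGF-beta included 7 higher and 1 lower of 18 in hIAPP against WT (median 0.33), 11 higher and 2 lower in rIAPP against WT (median 0.57), and 4 higher and 7 lower in hIAPP against rIAPP (median -0.09). These calls were 44.4%, 72.2% and 61.1% of the list. Ltbp1, which tethers latent TGF-beta to the matrix, lay at 11.2 ± 1.18 CPM in WT, 19.9 ± 3.14 in hIAPP and 14.4 ± 0.594 in rIAPP, with both lines above WT and no overlap (0.83 ± 0.09 and 0.36 ± 0.09, edgeR adjusted p = 3.72e-06 and 0.00439). The integrin subunits Itgb6 and Itgb8, which release active TGF-beta, were higher in rIAPP than in WT (0.58 ± 0.15 and 0.60 ± 0.08, edgeR adjusted p = 0.00662 and 4.9e-06). In hIAPP Itgb6 fell (-0.78 ± 0.15, edgeR adjusted p = 0.00171) and Itgb8 did not pass (-0.02 ± 0.08). Pcolce, an enhancer of the procollagen protease that Bmp1 encodes, rose in rIAPP by 1.72 ± 0.20 and in hIAPP by 0.98 ± 0.20 (edgeR adjusted p = 1.35e-06 and 0.00204).

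Of 15 antagonists tested, 4 were higher in hIAPP than in WT and 5 higher and 1 lower in rIAPP than in WT (medians 0.21 and 0.21), and between the lines 1 was higher in hIAPP and 3 in rIAPP (median -0.10). The 4 calls in hIAPP against WT and the 4 between the lines were each 26.7% of the list, the latter near the background. Nbl1, a BMP antagonist of the Dan family, lay at 11.6 ± 0.880 CPM in WT, 20.9 ± 3.71 in hIAPP and 33.8 ± 8.53 in rIAPP, above every WT library in both (0.85 ± 0.15 and 1.54 ± 0.15, edgeR adjusted p = 0.000643 and 1.55e-07). Crim1, a membrane protein that binds BMPs, rose in rIAPP (0.30 ± 0.08, edgeR adjusted p = 0.00926), as did Bmper, a secreted modulator of BMPs (1.44 ± 0.36, edgeR adjusted p = 0.00452). Fstl1, a follistatin-like protein of mesenchyme, rose in both lines (0.71 ± 0.16 and 0.51 ± 0.16, edgeR adjusted p = 0.00490 and 0.0215).

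Of 8 coreceptors and related membrane proteins tested, 0 rose and 1 fell in hIAPP against WT, 2 rose and 1 fell in rIAPP against WT, and 2 were lower in hIAPP than in rIAPP. The calls were 12.5%, 37.5% and 25.0% of the list and the medians -0.11, 0.03 and -0.03, so the shares of hIAPP against WT and of hIAPP against rIAPP lay near or below the background. Igsf1, an immunoglobulin-like membrane protein linked to activin signalling in the pituitary, lay at 36.2 ± 2.85 CPM in WT and 71.7 ± 15.0 in rIAPP, without overlap (0.99 ± 0.13, edgeR adjusted p = 7.75e-06). Eng, the endothelial coreceptor endoglin that works with Acvrl1, rose in rIAPP by 0.50 ± 0.11 (edgeR adjusted p = 0.00212). Ret, a receptor kinase used by Gdf15 with Gfral, fell in rIAPP (-0.21 ± 0.06, edgeR adjusted p = 0.00887), and Neo1, a netrin receptor that also binds repulsive guidance molecules, fell in hIAPP (-0.15 ± 0.05, edgeR adjusted p = 0.0269).

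Intracellular regulators were called in 4 of 21 cases in hIAPP against WT (2 higher, 2 lower), in 8 in rIAPP against WT (3 higher, 5 lower) and in 5 between the lines (4 higher and 1 lower in hIAPP). These were 19.0%, 38.1% and 23.8% of the list, near the background in the first and the last, with medians of -0.04, 0.01 and -0.09. Pmepa1, a TGF-beta-induced inhibitor of Smad2 and Smad3, lay at 17.0 ± 1.55 CPM in WT, 27.4 ± 4.13 in hIAPP and 15.1 ± 0.984 in rIAPP, and rose in hIAPP without overlap (0.69 ± 0.09, edgeR adjusted p = 1.66e-05). Nedd4l, a ubiquitin ligase that acts on Smads among other proteins, rose in rIAPP (0.45 ± 0.06, edgeR adjusted p = 1.4e-05). Fkbp1a, which keeps type I receptors inactive, and Ldlrad4, an inhibitor related to Pmepa1, fell in rIAPP (-0.25 ± 0.05 and -0.31 ± 0.07, edgeR adjusted p = 0.000524 and 0.00252). Of 5 further ligands tested, Lefty1, an inhibitor of nodal, was lower in rIAPP than in WT (-0.64 ± 0.15, edgeR adjusted p = 0.00357), Mstn, which encodes myostatin, higher (0.72 ± 0.23, edgeR adjusted p = 0.0244), and Gdnf, a neurotrophic factor, higher in hIAPP (1.16 ± 0.38, edgeR adjusted p = 0.0403). The Gdnf value rests on hIAPP 5, at 1.15 CPM against 0.303 to 0.388 in the other hIAPP libraries, and without it the log2 fold change was 0.69 and not called (edgeR adjusted p = 0.162). Nodal did not pass, with -0.36 ± 0.44 in hIAPP and -0.77 ± 0.45 in rIAPP.

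Among these named genes outside the family, 6 of 14 calls in hIAPP against WT, 7 of 23 in rIAPP against WT and 18 of 21 in hIAPP against rIAPP held in every alternative run. The acinar score as a covariate ended 8, 14 and 0 of them. In hIAPP against WT these were Col1a2, Fstl1, Gdnf, Hey1, Lox, Msx1, Neo1 and Pcolce. In rIAPP against WT they were Atoh8, Bmper, Crim1, Eng, Fstl1, Hamp2, Id1, Itgb6, Lefty1, Lox, Ltbp1, Mstn, Msx1 and Ret. Acinar marker sums did not overlap between rIAPP and WT, so acinar RNA and genotype cannot be told apart there. Scaling by library totals alone ended the calls of Fkbp1a, Ldlrad4 and Ret in rIAPP against WT. It also ended that of Neo1 in hIAPP against WT. Leaving out libraries ended the calls of Gdnf and Neo1 in hIAPP against WT, of Fstl1, Hamp2, Mstn and Msx1 in rIAPP against WT, and of Bmper and Msx1 in hIAPP against rIAPP, each in at least 1 run.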

How the data were processed

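RNA-seq of islets from 18 mice, 6 per genotype, was deposited by the authors as 1 table of estimated counts per gene symbol. Per the submitters' processing notes STAR, HTSeq and the builds GRCm38 and mm10 were used. For their roles, their versions and the use of strand, nothing is stated, and 39.2% of values above 0 were not whole. The deposited estimated counts were rounded, filtered with filterByExpr (20244 genes kept) and scaled by TMM. All 18 libraries entered 1 edgeR 4.0.16 quasi-likelihood fit with genotype as the factor, in R 4.3.3, with Benjamini-Hochberg adjustment of p-values across all genes. Intervals are 95% intervals. The procedure was tested on simulated data. Totals ran from 109.6 to 166.2 M, and the counting error is small beside the spread between mice except for genes with few counts. Within-group pairs of libraries differed by more than sampling noise, with chi-square per degree of freedom from 26.1 to 248 over 45 pairs. Each library came from its own mouse and was counted as its own sample.

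Alternatives were DESeq2 1.42.0, limma 3.58.1 with voom weights, other scalings and filters, an acinar score as covariate, fits of the compared genotypes alone, and libraries left out. Levels per kilobase used exon lengths of GENCODE M21 on GRCm38, which holds 49732 of the 54186 symbols and all 48 members. Genes outside the members are named as the 4 with the smallest p in each list. The members and lists were chosen with earlier results of these data known.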

Additional observations from a re-analysis of the deposited data

Results flagged for a closer look

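In 9 of 111 groups of 6 libraries, 1 library lay far from the other 5 of its genotype (Dixon's test at the 95% level), where chance gives about 5% of groups. Bmp4 was 2.43 CPM in WT 6, above 1.46 to 1.65 in the other WT libraries, and 1.40 CPM in hIAPP 3, below 2.54 to 3.03 in the other hIAPP libraries. High values in hIAPP 6 were found for Bmp7 at 2.21 CPM (others 0.851 to 1.33), Gdf9 at 0.454 CPM (others 0.212 to 0.281) and Bmpr1b at 2.33 CPM (others 1.55 to 1.76). That library also had the second lowest beta cell marker sum and the highest acinar marker sum of its genotype, and the part of these in the values was not tested. Acvr2b was 7.64 CPM in hIAPP 5 (others 6.11 to 6.50). In WT 3, Bmpr1b was 2.06 CPM (others 1.59 to 1.76) and Smad3 10.1 CPM (others 7.87 to 8.47). Tgfbr1 was 86.7 CPM in rIAPP 6, above 63.4 to 71.1 in the other rIAPP libraries.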

How the results depend on the processing

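No member's call reversed in any alternative run. Of the calls, 2 of 7 held in every alternative for hIAPP against WT, 7 of 19 for rIAPP against WT and 11 of 18 for hIAPP against rIAPP. For hIAPP against WT the count of 7 members became 11 with library totals alone, 3 with the acinar score as covariate (Gdf15 and Smad3, with Bmp6 added), 4 without hIAPP 5 and hIAPP 6, and 4 to 10 with 1 library left out (lowest without WT 1, highest without WT 5). All genes called there were 3208, and 808 with the acinar covariate, 1675 without hIAPP 5 and hIAPP 6, and 2377 to 3919 with 1 library left out. For rIAPP against WT the 19 members became 8 and the 5417 genes 2147 with the acinar covariate, and 16 to 20 members and 4711 to 5612 genes were called with 1 library left out. Acinar marker sums did not overlap between rIAPP and WT, so acinar RNA and genotype cannot be told apart in that run. Between the lines, leaving out 1 library gave 12 to 17 members (lowest without hIAPP 5), beside 18, and 4865 to 5718 genes, beside 5586. Library totals alone gave 3139 higher and 480 lower genes in hIAPP against WT (1683 and 1525 with TMM) and 4554 and 1404 in rIAPP against WT (2860 and 2557), with the median of all genes raised by 0.12 in both. The cause of these shifts was not tested. The remaining alternatives kept each count within 1.5 times. No paired analysis was possible because the labels give mice of different genotypes no shared number. Members under about 1 CPM, such as Gdf3, Gdf9, Gdf15 and Inhba, rest on few counts, and the 11 untested members on at most 15 counts a library.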

Other observations

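Some members are neighbours in the genome (GENCODE M21, GRCm38). On chromosome 14 Gdf2 starts 3.06 kb after Gdf10, on the same strand. Gdf10 rose in rIAPP, while Gdf2 held 32 counts over the rIAPP libraries, 7 over the WT and 0 over the hIAPP libraries. On chromosome 2 Acvr1c and Acvr1 lie 30.7 kb apart on the same strand. Acvr1c was lower in rIAPP than in WT, by -2.08 ± 0.17, and Acvr1 was at -0.06 ± 0.05 and did not pass. On chromosome 15 Acvrl1 and Acvr1b lie 28.7 kb apart, and Acvrl1 was at 0.47 ± 0.07 and Acvr1b at 0.01 ± 0.06 in the same comparison. On chromosome 9 Smad3 and Smad6 lie 195 kb apart, with Smad3 lower in rIAPP (-0.32 ± 0.08) and Smad6 higher (0.82 ± 0.18).

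Exons of several members overlap exons of other genes, so some of their reads cannot be assigned with certainty. For overlaps on the opposite strand this depends on the strand setting, which is not given. For overlaps on the same strand it holds under any setting. For Bmp5, 46.7% of its exon length overlaps Gm26903 on the opposite strand, and for Acvr2a 7.84% overlaps Orc4. For Tgfbr3, 4.54% overlaps Gm43422 on the same strand. Bmp5 and Acvr2a were called in no comparison.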
